A study of Mus musculus with 18 samples.

Results

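The genes described here are 10 genes of the NRF2 antioxidant response, out of 36528 genes counted in murine renal tubular cells stimulated with the cytokine TWEAK. They were listed by name, with earlier results of these data known: Nfe2l2 and Keap1, which encode NRF2 and its repressor, and the antioxidant genes Gclc, Gclm, Gsr, Txnrd1, Srxn1, Hmox1, Nqo1 and Sod2. Each was found by its Entrez identifier, and all 10 were expressed highly enough to be tested. In assembly GRCm38 (GENCODE M21) the genes lie as follows, with reads counted over their exons: Nfe2l2 at chr2:75675513-75704641 (minus strand), Keap1 at chr9:21229730-21239361 (minus strand), Gclc at chr9:77754535-77794485 (plus strand), Gclm at chr3:122245557-122270732 (plus strand), Gsr at chr8:33652523-33698163 (plus strand), Txnrd1 at chr10:82833951-82897712 (plus strand), Srxn1 at chr2:152105516-152111376 (plus strand), Hmox1 at chr8:75093621-75100589 (plus strand), Nqo1 at chr8:107388225-107403206 (minus strand) and Sod2 at chr17:13006846-13040063 (plus strand).

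Gene expression was measured by RNASeq in 18 cultures of renal tubulointerstitial epithelial cells of C57BL/6 mice from a commercial source, which the study calls renal proximal tubulo-interstitial epithelial cells (RPTEC). Cells received vehicle (DMSO), recombinant mouse TWEAK at 100 ng/mL, or the same TWEAK dose together with 3 μM NIK SMI1, a small-molecule inhibitor of NF-κB inducing kinase (NIK). RNA was taken after 6 h or 24 h, which gave 6 groups of 3 samples. No group received NIK SMI1 without TWEAK, so what the compound does to these genes in unstimulated cells cannot be told apart from what it does to the response to TWEAK. Nothing in the labels says whether the 3 samples of a group came from separate animals or cell preparations, and p-values measure the spread between these cultures only.

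NRF2 is a transcription factor that binds, as a dimer with a small MAF protein, to antioxidant response elements in front of genes for glutathione synthesis, thioredoxin reduction, haem breakdown and detoxification. In unstressed cells the adaptor KEAP1 hands NRF2 to a ubiquitin ligase and it is degraded; oxidants and electrophiles modify KEAP1 and NRF2 accumulates. Its activity is therefore set mainly by protein stability, which read counts do not measure. TWEAK is a cytokine of the TNF family that signals through NF-κB, and the tubular epithelium, which handles filtered oxidants, drugs and metals, is a tissue in which NRF2 target genes are widely used.

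Sequence in front of the genes is shown because an antioxidant response element is the site through which NRF2 acts. RefSeq promoter windows of assembly GRCm38.p6, from 250 bases before to 50 bases after each annotated start, matched 7 of the 10 genes in 9 windows (Txnrd1 has 3). They were searched on both strands for the core of the element, TGACNNNGC, and for the AP-1 motif TGACTCA. Both begin with the same 4 letters, and in these windows no match of the first overlapped a match of the second. Below, each stretch runs 5′ to 3′ in the direction of its gene, with the matches in capitals (a match on the other strand appears as the reverse complement of the motif).
Nfe2l2, chr2:75704875-75704913, minus strand, positions -250 to -212 from the start, element core: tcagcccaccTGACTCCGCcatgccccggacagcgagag
Gclm, chr3:122245403-122245451, plus strand, positions -154 to -106, element core: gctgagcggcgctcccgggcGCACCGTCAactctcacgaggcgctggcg
Txnrd1, chr10:82859094-82859142, plus strand, positions -112 to -64, element core: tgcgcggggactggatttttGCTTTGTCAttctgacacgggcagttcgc
Srxn1, chr2:152105402-152105505, plus strand, positions -122 to -19, AP-1 motifs: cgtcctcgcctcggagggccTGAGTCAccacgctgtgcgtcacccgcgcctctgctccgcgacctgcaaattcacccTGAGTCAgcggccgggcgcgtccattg
The element core was present in 4 of the 9 windows, those of Nfe2l2, Gclm, 1 of the 3 of Txnrd1, and Srxn1, where it lay behind the start at positions 29 to 37. Among all 32851 windows of the table, 12.4% held it. The AP-1 motif was present in 1 of the 9 windows, that of Srxn1, and in 5.2% of all windows. A match describes the letters and does not show that a factor binds there. Of the 4 genes with the element core, Nfe2l2, Gclm and Srxn1 were lower and Txnrd1 was higher with TWEAK at 6 h. The 3 searched genes without it in their windows, Keap1, Nqo1 and Sod2, were not called at that time. Of all tested genes, 12.0% were lower and 11.7% higher then. At 24 h this split was not seen, since Nqo1, without the core, was lower and Srxn1, with it, was not called. How often genes with or without the core are called among all genes was not computed, so the split says nothing on the element.

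The samples held 18040966 to 51956444 counted reads (median 35374254), and 15521 genes passed the filter and were tested. To describe the stimulus, all 9 genes of an NF-κB list rose with TWEAK at both times. Among them was Traf1, from 0.952–1.39 to 53.7–57.9 CPM (counts scaled to library size) at 24 h. Of all tested genes, 11.7% were higher at 6 h and 18.3% at 24 h. The list was chosen with earlier results of these data known, so it is no independent check. Of 10 proximal tubule markers, 8 were under 1 CPM in all 18 samples and Slc22a8 and Miox had no read at all. Slc5a2 (6.04 to 8.27 CPM) and Cubn (1.98 to 4.52 CPM) were detected. The epithelial keratins and Cdh1 were high. Krt20, a marker listed for urothelium, stood at 682 to 1358 CPM. Upk1a, Upk1b, Upk2, Upk3a and Krt5 of the same list stayed at 2.67 CPM or less. Markers of the distal nephron (8 of 8), endothelium (4 of 4), fibroblasts and mesangium (5 of 6) and leukocytes (5 of 6) stayed under 1 CPM in all samples. The exceptions were the fibroblast and mesangium marker Col1a1 (8.61 to 13.5 CPM) and the leukocyte marker Cd68 (10.95 to 14.4 CPM). Epithelial transcripts were thus present, but most of those that define the differentiated proximal tubule were not. Reads of pancreatic islet genes were seen at 13.9 to 29.8 CPM summed in all 12 samples of the 6 h groups and 24 h vehicle, and at 12.9, 0.208 and 4.09 CPM in TWEAK samples 1, 2 and 3 and 0.0437 to 0.0851 CPM in the TWEAK with NIK SMI1 samples at 24 h. Results at 24 h were for this reason also computed with TWEAK sample 2 as the lone TWEAK sample. That sample is close to the NIK SMI1 samples in these reads. It is further from 24 h vehicle (13.9 to 19.1 CPM) than TWEAK samples 1 and 3, so the setting is no check of comparisons with vehicle.

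TWEAK lowered Gclc, Gclm and Gsr, the genes of glutathione synthesis and reduction, at both times. At 6 h, Gclc, Gclm, Gsr, Srxn1 and Nfe2l2 fell and Txnrd1 rose: 5 of 10 genes were lower and 1 was higher, where 12.0% of all tested genes were lower and 11.7% higher. At 24 h, 5 genes were again lower (Gclc, Gclm, Gsr, Nfe2l2 and Nqo1) and 2 were higher (Hmox1 and Txnrd1), against 20.7% lower and 18.3% higher of all tested genes. Calls were made at an adjusted p below 0.05 (Benjamini-Hochberg over all tested genes) with edgeR's quasi-likelihood test, which gave every adjusted p below. The changes were moderate in size: at 6 h none of the 10 genes changed by more than 1.5-fold, and at 24 h Gclc and Nqo1 did. Their median log2 fold change was -0.085 at 6 h and -0.14 at 24 h, beside -0.0034 and -0.0055 over all tested genes. In bulk RNA, fewer cells of a type and less RNA per cell cannot be told apart. With TWEAK, the summed level of the 6 urothelial markers, nearly all of it Krt20, was also lower (685 to 710 against 999 to 1012 CPM with vehicle at 24 h), as was that of the 6 epithelial markers (9798 to 9973 against 10740 to 10900 CPM). The 6 epithelial markers did not move together: at 24 h Krt19 (-0.87, adjusted p = 8.47e-18), Krt18, Krt8 and Cdh1 were lower, Epcam was higher (0.90, adjusted p = 5.76e-18) and Cldn4 was not called (0.077, adjusted p = 0.0538). The part of these shifts in the results was not tested.

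**Figure D1:**
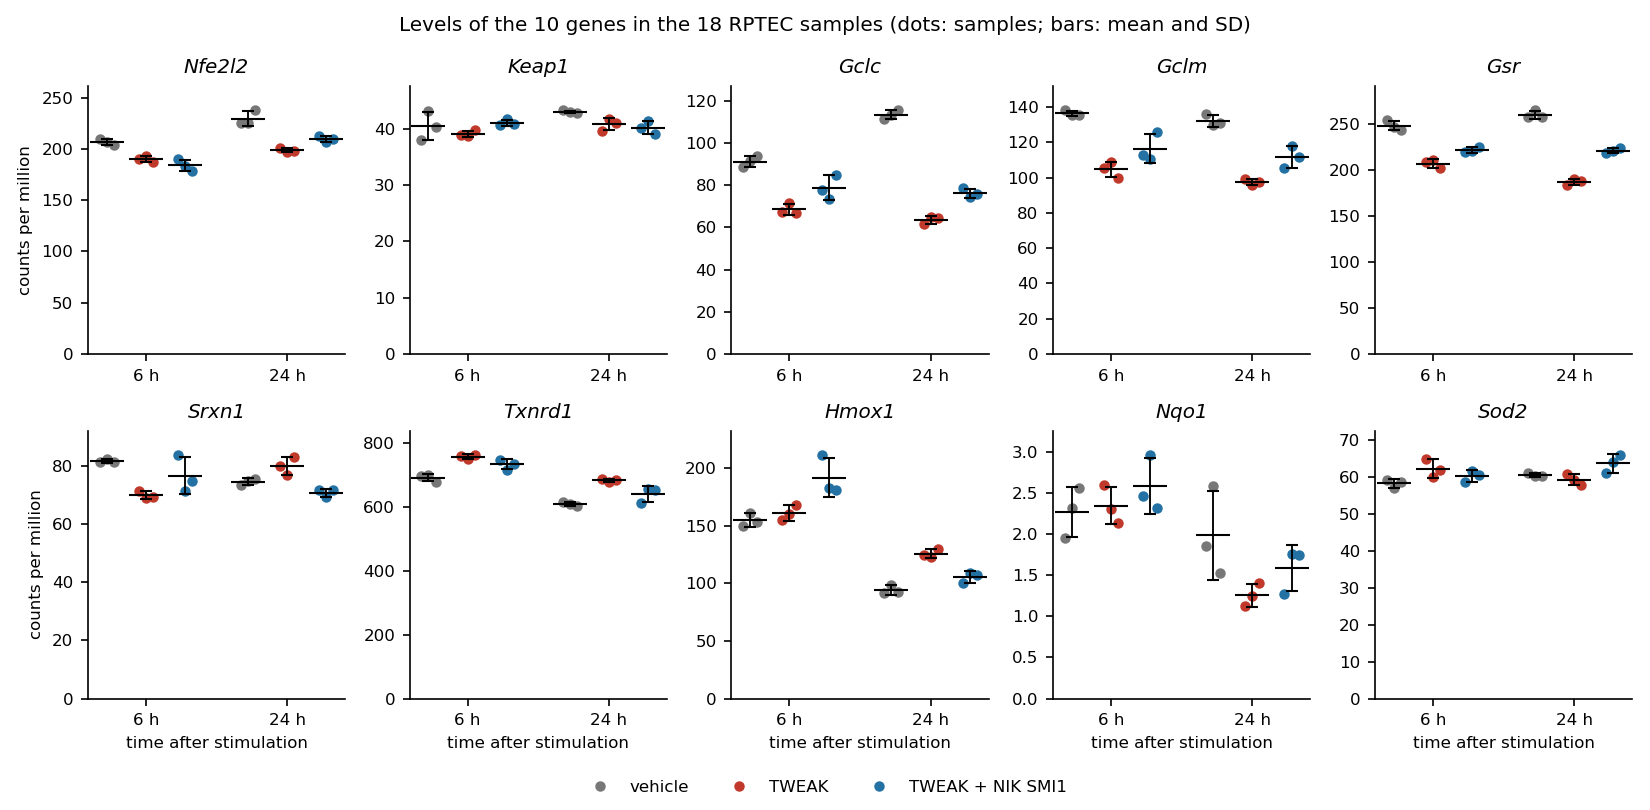
Level of each of the 10 genes in CPM (vertical axes, from 0) in vehicle (grey), TWEAK (red) and TWEAK with NIK SMI1 (blue) samples at 6 h and 24 h; dots are samples and black bars the mean and SD of 3. Gclc, Gclm and Gsr lie below all vehicle samples in every TWEAK sample at both times, with the NIK SMI1 samples between the other two groups.

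Nfe2l2, the gene of NRF2 itself, stood at 209, 207 and 204 CPM in the vehicle samples and 190.5, 193 and 187 CPM in the TWEAK samples at 6 h. At 24 h the values were 226, 225 and 238 CPM with vehicle and 201, 197 and 198 CPM with TWEAK. The groups did not overlap at either time. The decrease was small, 7.91% at 6 h (log2 fold change -0.12, SE 0.031, adjusted p = 0.00538) and 13.4% at 24 h (log2 fold change -0.21, SE 0.032, adjusted p = 5.85e-06). Keap1, the adaptor through which NRF2 is ubiquitinated, ranged from 38.0 to 43.2 CPM over all 18 samples and was called in none of the 9 comparisons (without vehicle 6 h sample 2, it was higher at 24 h than at 6 h with vehicle, adjusted p = 0.0363). Its log2 fold change with TWEAK was -0.051 at 6 h (95% interval -0.14 to 0.039) and -0.072 at 24 h (-0.17 to 0.021). All TWEAK samples at 24 h (39.6 to 41.7 CPM) lay below the vehicle samples (42.8 to 43.2 CPM). The NIK SMI1 samples were apart from vehicle at 24 h (-0.099, 95% interval -0.19 to -0.0059, adjusted p = 0.143). They were also apart from TWEAK at 6 h (0.071, adjusted p = 0.382). In GENCODE M21, 510 of the 4693 exonic bases of Keap1 also belong to the antisense gene Gm16754, and reads from shared bases cannot be told apart in these unstranded libraries. Whether those bases lie in the 4470 bases over which Keap1 was counted was not tested.

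Gclc, the catalytic subunit of glutamate-cysteine ligase, which carries out the rate-limiting step of glutathione synthesis, showed the largest decrease among the 10 genes with TWEAK at both times. Vehicle samples held 88.4, 91.3 and 93.6 CPM at 6 h and 111, 113 and 115 CPM at 24 h. TWEAK samples held 67.4, 71.7 and 66.6 CPM and 61.4, 64.8 and 64.4 CPM, below every vehicle sample of the same time. The decrease was 24.7% at 6 h (log2 fold change -0.41, SE 0.044, adjusted p = 2.62e-08) and 43.8% at 24 h (log2 fold change -0.83, SE 0.045, adjusted p = 1.5e-14). Gclm, the modifier subunit that raises the activity of the same enzyme, went from 138, 136 and 136 CPM to 105, 109 and 100.1 CPM at 6 h and from 136, 129.7 and 131 CPM to 99.4, 95.9 and 97.8 CPM at 24 h. Here too the groups were apart, with decreases of 23.2% (log2 fold change -0.38, SE 0.044, adjusted p = 9.75e-08) and 26.3% (log2 fold change -0.44, SE 0.045, adjusted p = 6.28e-09). In GENCODE M21, Gclm shares 296 of 6291 exonic bases with Gm17494 on the other strand and 244 with the pseudogene Gm6061. The gene was counted over 2072 bases, and whether these hold any of the shared ones was not tested. Gsr, glutathione reductase, which regenerates reduced glutathione with NADPH, stood at 254, 247 and 243 CPM with vehicle and 208, 210.2 and 202 CPM with TWEAK at 6 h. At 24 h it stood at 257, 264 and 257 CPM and 184, 189.9 and 188 CPM. It was lower in all TWEAK samples, by 16.6% (log2 fold change -0.26, SE 0.030, adjusted p = 8.53e-08) and 27.9% (log2 fold change -0.47, SE 0.030, adjusted p = 6.33e-13).

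Txnrd1 rose with TWEAK at both times, and Srxn1 fell at 6 h. Txnrd1, cytosolic thioredoxin reductase and the most abundant of the 10 transcripts, rose from 695, 699 and 679 CPM to 760.1, 749 and 763 CPM at 6 h. At 24 h it rose from 615, 608 and 604 CPM to 687, 677 and 685 CPM. These increases of 9.55% (log2 fold change 0.13, SE 0.029, adjusted p = 0.00108) and 12.2% (log2 fold change 0.17, SE 0.029, adjusted p = 4.48e-05) were small but exceeded the spread, as no TWEAK sample overlapped a vehicle sample. Srxn1, sulfiredoxin, which reactivates overoxidized peroxiredoxins, held 81.3, 82.3 and 81.2 CPM with vehicle and 71.4, 68.9 and 69.2 CPM with TWEAK at 6 h. That decrease of 14.5% passed the test (log2 fold change -0.23, SE 0.044, adjusted p = 0.00027). At 24 h it held 73.3, 74.8 and 75.5 CPM with vehicle and 79.9, 76.7 and 82.9 CPM with TWEAK, all TWEAK samples being above the vehicle samples, but the difference was not called (log2 fold change 0.10, SE 0.045, adjusted p = 0.0843). It was called without TWEAK sample 2 (adjusted p = 0.0481) and in a fit of that time alone (adjusted p = 0.0321).

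Hmox1, haem oxygenase 1, which breaks down haem, is an NRF2 target that is repressed by BACH1. At 6 h its values overlapped, 149, 162 and 154 CPM with vehicle and 155, 160.1 and 168 CPM with TWEAK (log2 fold change 0.058, SE 0.049, adjusted p = 0.465). At 24 h they were 91.4, 99.0 and 92.1 CPM with vehicle and 125, 123 and 129.8 CPM with TWEAK, an increase of 33.9% in which the groups were apart (log2 fold change 0.42, SE 0.052, adjusted p = 1.86e-07). Even so, the 24 h TWEAK samples lay below the 6 h vehicle samples. Nqo1, the quinone reductase often used to read out NRF2 activity, was weakly expressed, with 26 to 131 reads per sample. It held 1.85, 2.58 and 1.52 CPM with vehicle and 1.12, 1.25 and 1.40 CPM with TWEAK at 24 h (log2 fold change -0.62, SE 0.20, adjusted p = 0.0178). Every TWEAK sample lay below every vehicle sample, but the call was lost without vehicle sample 2 (log2 fold change -0.43, adjusted p = 0.123). It was also lost, with a change of about the same size, without TWEAK sample 2 (-0.60, adjusted p = 0.0558). With that sample as the lone TWEAK sample, which is no check of this comparison, the log2 fold change was -0.65. At 6 h the Nqo1 log2 fold change was 0.027 with a 95% interval of -0.33 to 0.38 that spans 0 widely. Sod2, the mitochondrial superoxide dismutase, a gene that inflammatory stimuli raise in many cell types through NF-κB, ranged from 57.0 to 66.0 CPM over all samples. Its log2 fold change with TWEAK was 0.093 (adjusted p = 0.0982) at 6 h and -0.034 (adjusted p = 0.565) at 24 h, with 95% intervals of 0.011 to 0.18 and -0.12 to 0.052.

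Per exonic length (the authors' RPKM), the order in 6 h vehicle samples ran from Txnrd1 (162 ± 2.74, SD, n = 3) over Hmox1 (92.5 ± 4.09), Gsr (87.4 ± 1.68), Nfe2l2 (78.8 ± 0.90), Gclm (62.0 ± 0.48), Srxn1 (27.3 ± 0.32), Gclc (22.3 ± 0.70), Sod2 (14.4 ± 0.23) and Keap1 (8.52 ± 0.57) to Nqo1 (1.38 ± 0.19). Hmox1 and Gsr overlapped between samples, and the other neighbours did not. The catalytic subunit Gclc was thus less abundant per length than its modifier Gclm in these cells.

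NIK SMI1 moved the 3 glutathione genes back toward vehicle, but not fully. Its comparison with TWEAK alone uses the same TWEAK samples as the comparison above, so each is given with its own values. At 6 h, 5 of the 10 genes were higher with TWEAK and NIK SMI1 than with TWEAK (Gclc, Gclm, Gsr, Srxn1 and Hmox1) and 0 were lower by edgeR or DESeq2, where 5.34% of all tested genes were higher and 5.70% lower. No member was lower at an unadjusted p below 0.05 in this comparison either. At 24 h, 3 were higher (Gclc, Gclm and Gsr) and 3 were lower (Hmox1, Srxn1 and Txnrd1), against 10.2% and 8.29% of all tested genes.

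**Figure D2:**
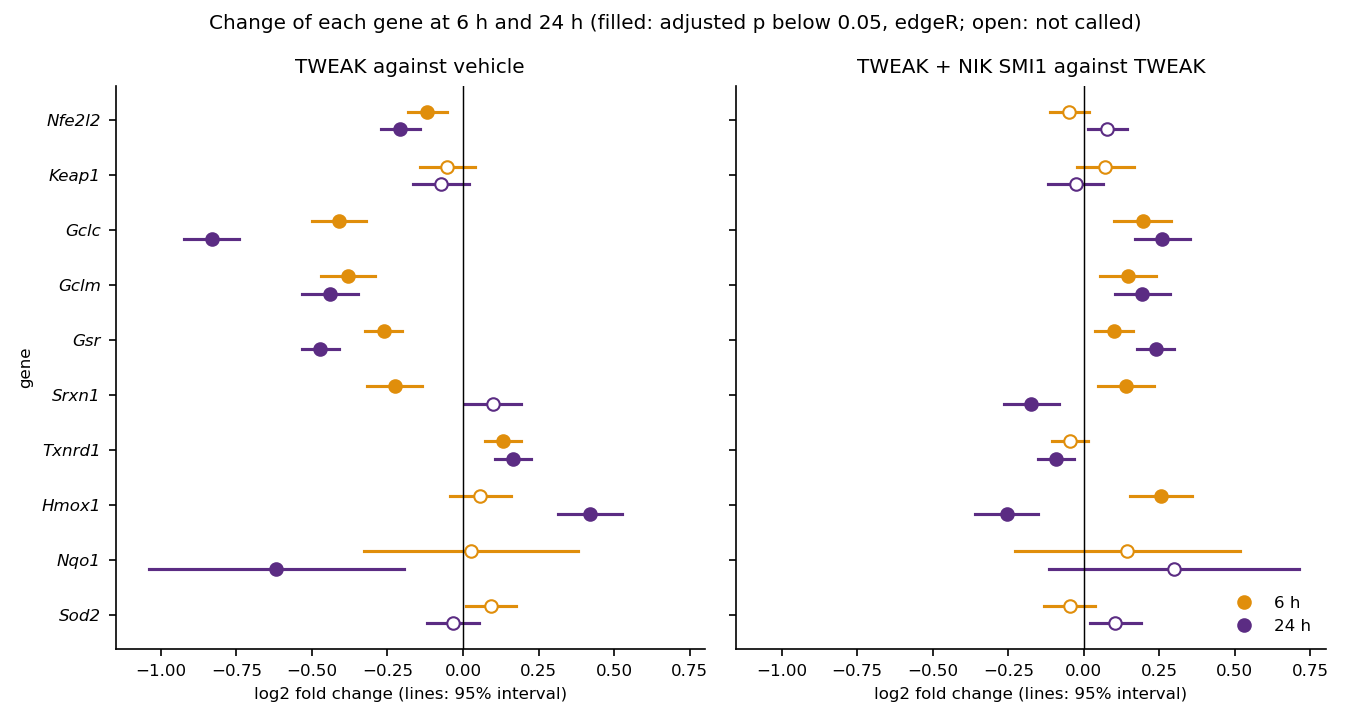
Log2 fold change (horizontal axes) of each of the 10 genes for TWEAK against vehicle (left) and TWEAK with NIK SMI1 against TWEAK (right), at 6 h (orange) and 24 h (purple); lines are 95% intervals and filled dots passed an adjusted p of 0.05. Gclc, Gclm and Gsr lie left of 0 in the left panel and right of 0 in the right panel at both times, while Hmox1 and Srxn1 lie on opposite sides of 0 at 6 h and 24 h in the right panel.

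With NIK SMI1, Gclc held 77.9, 73.4 and 85.0 CPM at 6 h and 78.5, 74.3 and 75.6 CPM at 24 h, above every TWEAK sample of its time. The log2 fold change against TWEAK was 0.19 (SE 0.045, adjusted p = 0.00421) at 6 h and 0.26 (SE 0.045, adjusted p = 8.08e-05) at 24 h. Gclm held 113, 110.4 and 126 CPM and 106, 118 and 112 CPM, 0.15 (SE 0.045, adjusted p = 0.0323) at 6 h and 0.19 (SE 0.044, adjusted p = 0.00223) at 24 h on the log2 scale. For Gsr the levels were 219, 220.5 and 225 CPM and 218, 221 and 224 CPM, and the log2 fold changes 0.099 (SE 0.030, adjusted p = 0.0317) and 0.24 (SE 0.030, adjusted p = 9.67e-07). All 3 genes stayed below vehicle at both times, with Gclc at -0.22 (adjusted p = 0.00123) and -0.57 (adjusted p = 1.19e-10), Gclm at -0.23 (adjusted p = 0.000492) and -0.25 (adjusted p = 0.000139), and Gsr at -0.16 (adjusted p = 0.000371) and -0.23 (adjusted p = 1.12e-06). Nfe2l2 remained below vehicle as well, 189.8, 183 and 179 CPM at 6 h and 213, 206 and 209.7 CPM at 24 h, -0.17 (adjusted p = 0.000492) and -0.13 (adjusted p = 0.00361), and its difference from TWEAK passed the test at neither time (-0.048, adjusted p = 0.394 and 0.078, adjusted p = 0.091). The 6 h calls against TWEAK of Gclm, Gsr and Srxn1 lay near the threshold, and 2 to 4 of the 10 genes remained called when 1 of the 6 samples was left out. For Gsr the call was lost without any of them but TWEAK sample 2 (adjusted p = 0.0532 to 0.147), while the log2 fold change stayed at 0.081 to 0.11. For Gclm it was lost without TWEAK sample 1 (0.15, adjusted p = 0.0921), TWEAK sample 3 (0.12, adjusted p = 0.156) or NIK SMI1 sample 3 (0.092, adjusted p = 0.188). For Srxn1 it was lost without TWEAK sample 1, 2 or 3 (0.15, 0.13 and 0.13, adjusted p = 0.0774, 0.136 and 0.117), and without NIK SMI1 sample 1 the change itself was smaller (0.064, adjusted p = 0.429). Those of Gclc and Hmox1 passed in all 6.

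Hmox1 moved in opposite directions at the 2 times. With NIK SMI1 it held 212, 183 and 181 CPM at 6 h, above all vehicle and TWEAK samples, and 100.0, 109 and 107 CPM at 24 h, below all TWEAK samples. The log2 fold change against TWEAK was 0.26 (SE 0.050, adjusted p = 0.000654) at 6 h and -0.26 (SE 0.051, adjusted p = 0.000452) at 24 h. Srxn1 held 83.7, 71.4 and 74.7 CPM at 6 h, with samples 1 and 3 above all TWEAK samples and sample 2 within their range. At 24 h it held 71.6, 69.1 and 71.5 CPM. Its differences from TWEAK were 0.14 (adjusted p = 0.0467) and -0.17 (adjusted p = 0.00591). Txnrd1 was -0.047 (adjusted p = 0.362) at 6 h and -0.093 (adjusted p = 0.0257) at 24 h, with 612, 656 and 654 CPM at 24 h. With TWEAK sample 2 as the lone 24 h TWEAK sample, Gclc, Gclm and Gsr remained higher with NIK SMI1, whereas Hmox1 (log2 fold change -0.22, adjusted p = 0.0578), Srxn1 (-0.12, adjusted p = 0.302) and Txnrd1 (-0.081, adjusted p = 0.307) were no longer called. Leaving out TWEAK sample 3 ended the 24 h calls of Srxn1 (-0.14, adjusted p = 0.0529) and Txnrd1 (-0.091, adjusted p = 0.0713), and leaving out TWEAK sample 1 or NIK SMI1 sample 1 ended that of Txnrd1 (-0.089 and -0.061, adjusted p = 0.0783 and 0.174). Nqo1 and Sod2 were not called, with Sod2 at 61.1, 64.1 and 66.0 CPM with NIK SMI1 at 24 h (0.10, adjusted p = 0.0737; adjusted p = 0.0325 without NIK SMI1 sample 1) and Nqo1 at 1.27, 1.76 and 1.74 CPM (0.30, adjusted p = 0.359).

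Compared with vehicle, TWEAK with NIK SMI1 left 1 gene higher (Hmox1) and 4 lower (Gclc, Gclm, Gsr and Nfe2l2) at 6 h, where 7.23% of all tested genes were higher and 6.70% lower. At 24 h the counts were again 1 higher (Hmox1) and 4 lower (the same 4 genes), against 8.07% higher and 9.83% lower of all tested genes. The 24 h NIK SMI1 samples also differed from vehicle in summed islet reads (0.0437 to 0.0851 against 13.9 to 19.1 CPM). The part of that difference in this comparison was not tested. The 24 h difference of Hmox1, 0.17 (SE 0.052, adjusted p = 0.0256), was lost in 4 of the 6 fits that left out a sample (vehicle sample 1 or 3, NIK SMI1 sample 2 or 3, log2 fold change 0.14 to 0.15, adjusted p = 0.0875 to 0.131). Leaving out NIK SMI1 sample 1 added Srxn1 as lower at 6 h (adjusted p = 0.0158) and Txnrd1 as higher at 24 h (adjusted p = 0.0128), and leaving out NIK SMI1 sample 2 added Txnrd1 as higher at 6 h (adjusted p = 0.0446).

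The 2 times also differed without TWEAK. In vehicle samples, 2 of the 10 genes were higher at 24 h than at 6 h (Gclc and Nfe2l2) and 3 were lower (Hmox1, Srxn1 and Txnrd1), where 15.5% of all tested genes were higher and 14.4% lower. Hmox1 fell most, by 39.3% (log2 fold change -0.72, SE 0.051, adjusted p = 1.44e-11). Gclc rose by 24.2% (log2 fold change 0.31, SE 0.043, adjusted p = 2.5e-06) and Nfe2l2 by 11% (log2 fold change 0.15, SE 0.032, adjusted p = 0.000524). Txnrd1 (-0.18, adjusted p = 2e-05) fell slightly. The decrease of Srxn1, -0.13 (adjusted p = 0.0272), stayed at a like size but was lost without vehicle 6 h sample 2 (-0.13, adjusted p = 0.069), vehicle 24 h sample 1 (-0.12, adjusted p = 0.108) or vehicle 24 h sample 2 (-0.14, adjusted p = 0.0555).

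Whether the TWEAK effect differed between the times was tested as an interaction. It was higher at 24 h for 2 genes and lower for 2, where 3.24% and 5.67% of all tested genes were called in these directions. Hmox1 (0.36, SE 0.071, adjusted p = 0.000967) and Srxn1 (0.33, SE 0.063, adjusted p = 0.000875) were the higher ones. Gclc (-0.42, SE 0.062, adjusted p = 3.02e-05) and Gsr (-0.21, SE 0.042, adjusted p = 0.00131) were the lower ones, so that their decrease against vehicle of the same time was larger at 24 h. For Gclc the vehicle level itself was higher at 24 h, and the part of that shift was not tested. For Gclm the difference was -0.059 (95% interval -0.19 to 0.069). The effect of NIK SMI1 was lower at 24 h than at 6 h for 2 genes, Hmox1 (-0.51, SE 0.071, adjusted p = 8.23e-05) and Srxn1 (-0.31, SE 0.064, adjusted p = 0.00386), and higher for 0, against 1.62% lower and 3.11% higher of all tested genes. For genes higher in this last contrast, DESeq2 called 1 member, Gsr (adjusted p = 0.0231), as did edgeR without TWEAK 6 h sample 3 (0.0463) or NIK SMI1 6 h sample 3 (0.0407), and Nfe2l2, Gsr and Sod2 had unadjusted p-values below 0.05 in edgeR.

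The 10 genes were set beside 121 further redox genes in 9 lists, of which 108 were tested. With TWEAK, 19 of these were higher and 23 lower at 6 h, and 24 were higher and 39 lower at 24 h. Of all tested genes, 11.7% were higher and 12.0% lower at 6 h, and 18.3% higher and 20.7% lower at 24 h. The list counts below for TWEAK against vehicle are to be read against these shares. Without TWEAK 6 h sample 2, the 23 lower genes became 14. Of 15 regulators and partners of NRF2, 7 were higher and 1 lower at 6 h, and 9 were higher and 1 lower at 24 h (median log2 fold change 0.30 and 0.31). Sqstm1, the autophagy receptor that also binds KEAP1, rose from 811–849.6 CPM to 1631–1637 CPM at 24 h (log2 fold change 0.97, SE 0.034, adjusted p = 1.97e-18). Nfe2l1, an NRF2-related transcription factor, rose by 0.49 (SE 0.029, adjusted p = 9.96e-14), and Bach1, the repressor of NRF2 target genes, by 0.45 (SE 0.046, adjusted p = 4.9e-09) at 24 h. At 6 h the log2 fold changes of these 3 genes were 0.78, 0.52 and 0.62 (adjusted p = 4.21e-16, 5.86e-14 and 7.81e-12). The small MAF gene Mafk was the lowered member (-0.23, adjusted p = 9.55e-05 at 6 h and -0.24, adjusted p = 5.89e-05 at 24 h). NIK SMI1 lowered Sqstm1 (-0.50, adjusted p = 1.35e-11) and Nfe2l1 (-0.31, adjusted p = 3.32e-09) against TWEAK at 24 h, and 7 of the 15 genes in all, with 8 not called (4 lowered with TWEAK sample 2 as the lone TWEAK sample). At 6 h it lowered 5 and raised 1, Mafk (0.21, adjusted p = 0.00121). For NIK SMI1 against TWEAK, 5.34% of all tested genes were higher and 5.70% lower at 6 h, and 10.2% and 8.29% at 24 h.

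**Figure D3:**
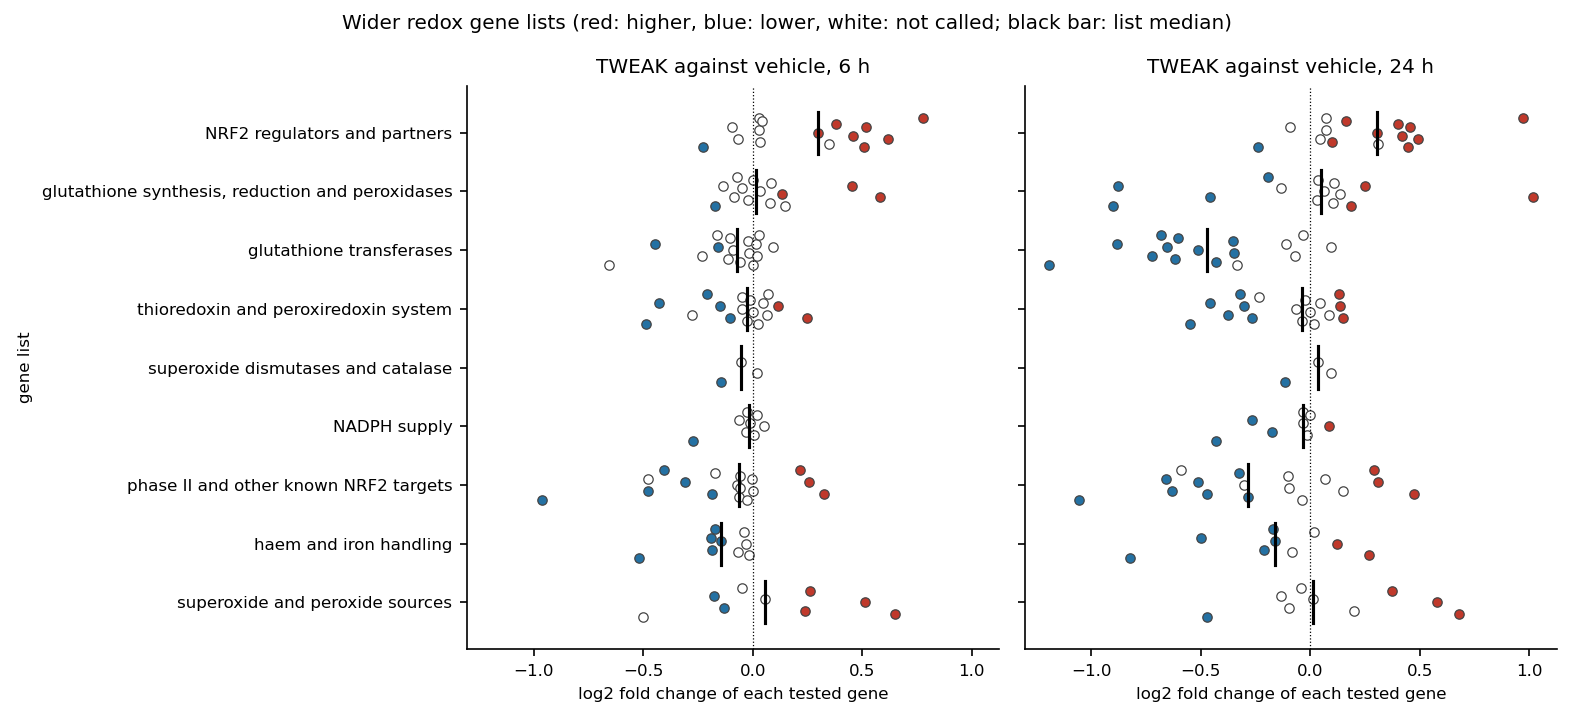
Log2 fold change of TWEAK against vehicle (horizontal axes) for each tested gene of 9 wider redox lists (rows) at 6 h (left) and 24 h (right); red genes were higher, blue lower and white not called, and black bars are list medians. Regulators lie mostly to the right at both times, and glutathione transferases lie to the left at 24 h, where 11 of 16 were lower.

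Among the genes around glutathione, Slc7a11, the cystine importer that supplies cysteine for glutathione, rose, unlike Gclc and Gclm, from 17.5–20.2 CPM to 27.2–28.6 CPM at 6 h (log2 fold change 0.58, SE 0.073, adjusted p = 5.1e-07) and from 10.7–11.6 CPM to 22.2–23.1 CPM at 24 h (log2 fold change 1.02, SE 0.084, adjusted p = 1.14e-10). NIK SMI1 lowered it to 13.2–16.7 CPM at 24 h (log2 fold change -0.62, SE 0.077, adjusted p = 9.04e-07). Gss, glutathione synthetase, which carries out the last step of synthesis, was higher at 6 h, from 39.9–42.2 CPM to 43.3–46.3 CPM (log2 fold change 0.13, SE 0.044, adjusted p = 0.0254), and was not called at 24 h (0.11, adjusted p = 0.0648). The 6 h call of Gss was lost without vehicle sample 2 or 3 or TWEAK sample 1 or 3 (log2 fold change 0.11 to 0.14, adjusted p = 0.054 to 0.117). Slc3a2, the partner chain of Slc7a11, was higher at 24 h (0.18, adjusted p = 4.73e-05). Gpx3, the secreted glutathione peroxidase, was at 691–743 CPM with vehicle and 667–699 CPM with TWEAK at 6 h, and at 552–582 CPM and 300.5–312 CPM at 24 h, a decrease at 24 h that passed the test (log2 fold change -0.90, SE 0.048, adjusted p = 1.02e-14) and differed from 6 h (-0.83, adjusted p = 1.06e-09). Over the 14 tested genes of this list, 3 were higher and 1 lower at 6 h (2 higher without vehicle sample 3 or TWEAK sample 3), and 3 were higher and 4 lower at 24 h. Of 16 tested glutathione transferases, 2 were lower and 14 not called at 6 h (1 lower without vehicle sample 2, and 0 without vehicle sample 3 or TWEAK sample 2), and 11 were lower and 5 not called at 24 h (median log2 fold change -0.47). Gstm1, at 18.1–19.2 CPM with vehicle and 9.87–10.4 CPM with TWEAK at 24 h (log2 fold change -0.88, SE 0.086, adjusted p = 2.44e-09), and Gsta4 (-0.72, adjusted p = 1.18e-08) are examples. Transferases of one class are close paralogs and their reads are uncertain. TWEAK sample 2 alone is no check of this comparison, since it differs most from vehicle in islet reads.

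**Figure D4:**
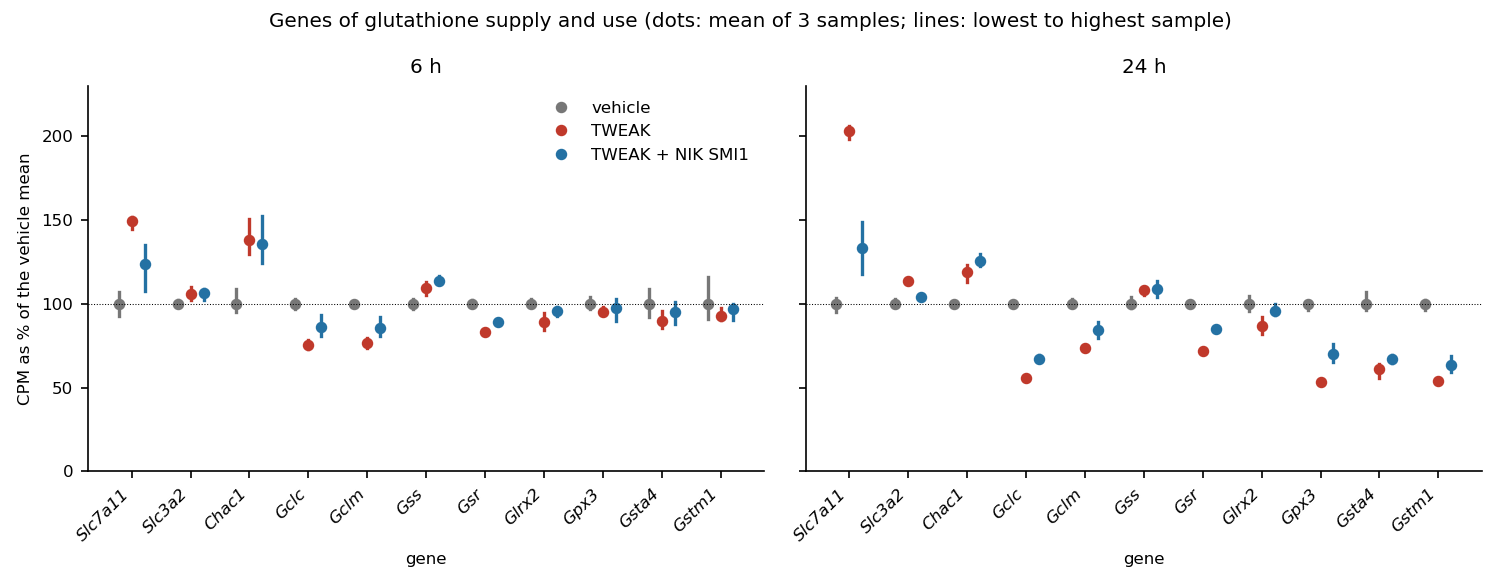
Level of genes of cystine import, glutathione synthesis, reduction and use as a percentage of the vehicle mean of the same time (vertical axis, from 0) at 6 h (left) and 24 h (right); dots are means of 3 samples and lines run from the lowest to the highest sample. Slc7a11 lies above 100% with TWEAK while Gclc, Gclm and Gsr lie below it at both times, and Gpx3, Gsta4 and Gstm1 lie far below it at 24 h.

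Of the 17 other genes of thioredoxin and peroxiredoxins, 2 were higher and 5 lower at 6 h, and 3 were higher and 6 lower at 24 h; the higher ones were about as frequent as among all tested genes. Txnip, the inhibitor of thioredoxin, fell from 375–382 CPM to 254–263 CPM at 24 h (log2 fold change -0.55, SE 0.030, adjusted p = 2.56e-14) and was also lower at 6 h (-0.43, adjusted p = 6.33e-12). Prdx5, a peroxiredoxin, fell at 24 h (-0.46, adjusted p = 1.95e-10). Of 3 tested genes of the superoxide dismutase and catalase list, Cat was lower at 6 h (-0.14, adjusted p = 0.00265), and the other 2 were not called. At 24 h 1 gene of this list was lower and 2 were not called. That call was lost without vehicle sample 3 or TWEAK sample 1, and a fit of 24 h alone called 1 higher and 1 lower. Among 8 genes of NADPH supply, Idh1, cytosolic isocitrate dehydrogenase, was lower at both times (-0.27, adjusted p = 1.67e-05 and -0.43, adjusted p = 4.97e-09). In this list 1 gene was lower and 7 not called at 6 h, and 3 were lower and 1 higher at 24 h. The lower share at 6 h was about that of all tested genes.

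Of 17 phase II and other known NRF2 targets, 3 were higher and 5 lower at 6 h, and 3 were higher and 7 lower at 24 h. Osgin1, an oxidative stress-induced growth inhibitor, fell from 135–141 CPM to 64.4–75.7 CPM at 6 h (log2 fold change -0.96, SE 0.049, adjusted p = 1.39e-14) and stood between them with NIK SMI1, at 106–107 CPM (log2 fold change 0.59, SE 0.051, adjusted p = 2.86e-09 against TWEAK). Abcc3, an organic anion exporter, fell from 60.8–63.9 CPM to 28.7–31.3 CPM at 24 h (log2 fold change -1.05, SE 0.049, adjusted p = 7.36e-16), with 38.3–40.8 CPM with NIK SMI1 (0.39, adjusted p = 1e-06). Abcc1, an exporter of glutathione conjugates, went the other way (0.33, adjusted p = 1.79e-07 at 6 h and 0.31, adjusted p = 4.12e-07 at 24 h), as did the aldo-keto reductase Akr1b8 (0.26, adjusted p = 8.56e-05 and 0.47, adjusted p = 5.82e-09), whose reads may be shared with near-identical family members. Around Hmox1, 5 of 9 haem and iron genes were lower and 4 not called at 6 h (3 lower without vehicle sample 2 or TWEAK sample 1 or 2, and 2 without TWEAK sample 3), and 5 were lower and 2 higher at 24 h. Slc40a1, the iron exporter ferroportin, fell from 46.6–51.5 CPM to 27.2–28.5 CPM (log2 fold change -0.82, SE 0.050, adjusted p = 1.68e-13) and Tfrc, the transferrin receptor, from 79.7–87.1 CPM to 58.3–60.6 CPM (log2 fold change -0.50, SE 0.052, adjusted p = 9.42e-09) at 24 h. NIK SMI1 raised both against TWEAK at 24 h, Slc40a1 by 0.42 (adjusted p = 2.63e-07) and Tfrc by 0.44 (adjusted p = 2.2e-07). Across all 9 lists, NIK SMI1 raised 13 and lowered 11 genes against TWEAK at 6 h. The raised genes were 7 without TWEAK sample 2 and 19 without NIK SMI1 sample 3. At 24 h NIK SMI1 raised 15 and lowered 18. With TWEAK sample 2 as the lone 24 h TWEAK sample, the latter counts were 8 raised and 9 lowered. Of all tested genes, 5.34% were raised and 5.70% lowered at 6 h, and 10.2% and 8.29% at 24 h.

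The genes whose log2 CPM followed each member most closely over the 18 samples are given as a description, since the samples share their treatments. The closest were Efnb2 for Gsr (Pearson r = 0.988), Tlr3 for Gclc (r = 0.986), Nipal1 for Txnrd1 (r = 0.985, with the small MAF gene Maff next at 0.979), Zfp36l2 for Gclm (r = 0.983), Zyx for Hmox1 (r = 0.975), Tubb2a for Nqo1 (r = 0.949) and Arhgap24 for Nfe2l2 (r = 0.947). Keap1 (Sh3bp1, r = 0.874), Sod2 (Snx5, r = 0.733) and Srxn1 (Glul, r = 0.70) had no gene that close.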

How the data were processed

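RNASeq of 18 RPTEC cultures was analysed. Alignment by the authors used GSNAP, run from HTSeqGenie, on mouse NCBI build 37, with versions not given in the sources used here. The authors deposited for each sample raw counts of uniquely aligned reads in the exons of 36528 genes, without normalization. The authors also deposited RPKM values, per exonic length and total reads, which were used only to compare levels between genes. The study's methods and the sample labels differ on sequencer, read length and input RNA. The TruSeq RNA v2 kit does not mark strand.

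Genes with more than 10 reads in at least 4 samples, as in the study's methods, were tested (15521 genes). The 18 samples were fitted as 6 groups with edgeR 4.0.16 under R 4.3.3 (TMM, quasi-likelihood F-test), with Benjamini-Hochberg adjustment across the genes tested. Standard errors were derived from the F statistic. CPM are counts scaled by TMM library sizes. Depths of 18040966 to 51956444 reads make counting error small except for Nqo1. Replicate pairs differed by more than sampling noise (chi-square per gene 2.20 to 10.0) and none was identical. Scripts were tested on simulated data. Alternatives were DESeq2 1.42.0, its size factors, other filters, each time point alone, a fold threshold of 1.5, and leaving out each sample. The labels give no replicate numbers or batches, and sample numbers only tell samples apart.

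Members and gene lists were chosen with earlier results of these data known. Named genes were the 10 members, up to 3 genes per list, comparison and direction with the largest change among those called whose samples do not overlap, the 2 genes most like each member, and markers. Positions and symbols came from GENCODE M21 and RefSeq on GRCm38, and none was converted from build 37. Promoter entries for Hmox1, Gclc and Gsr were not used here.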

Additional observations from a re-analysis of the deposited data

Results flagged for a closer look

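For 6 values the effect of an agent differed between 6 h and 24 h in edgeR's interaction test, which is what singled them out. The effect of TWEAK on Hmox1 (difference in log2 fold change 0.36, SE 0.071, adjusted p = 0.000967) and on Srxn1 (0.33, SE 0.063, adjusted p = 0.000875) was higher at 24 h than at 6 h. The effect of TWEAK on Gclc (-0.42, SE 0.062, adjusted p = 3.02e-05) and on Gsr (-0.21, SE 0.042, adjusted p = 0.00131) was lower at 24 h, meaning a larger decrease against vehicle of the same time. The effect of NIK SMI1 in TWEAK-treated cells on Hmox1 (-0.51, SE 0.071, adjusted p = 8.23e-05) and on Srxn1 (-0.31, SE 0.064, adjusted p = 0.00386) was lower at 24 h. The 24 h TWEAK samples enter both contrasts, so the values of a gene are not independent of each other. With TWEAK sample 2 as the lone 24 h TWEAK sample, an alternative chosen after seeing the data, the last of these was no longer called (log2 -0.26). For the TWEAK values that setting is no check, since this sample differs most from vehicle in islet reads. The Hmox1 values also come with a lower vehicle level at 24 h (91.4 to 99.0 CPM) than at 6 h (149 to 162 CPM). Vehicle levels of Srxn1 were lower at 24 h too (73.3 to 75.5 against 81.2 to 82.3 CPM). For Gclc the vehicle level was higher at 24 h (111 to 115 CPM) than at 6 h (88.4 to 93.6 CPM). Its TWEAK samples differed less between the times (61.4 to 64.8 CPM at 24 h, 66.6 to 71.7 CPM at 6 h). The part of these shifts was not tested.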

How the results depend on the processing

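Of 90 member values (10 genes in 9 comparisons), 45 were called. Under the other tools, scalings, filters and sample sets 35 of these kept call and direction throughout, and 0 of the called values reversed. Requiring a fold change above 1.5 left 0 of 6 called members for TWEAK against vehicle at 6 h, 2 of 7 at 24 h, 0 of 5 and 0 of 6 for NIK SMI1 against TWEAK, 0 of 5 and 0 of 5 for NIK SMI1 against vehicle at 6 h and 24 h, 1 of 5 for the vehicle times, 0 of 4 for the TWEAK interaction and 0 of 2 for the NIK SMI1 interaction. For NIK SMI1 against TWEAK at 6 h, 3 members were called without a filter and 2 in a fit of that time alone. With TWEAK sample 2, nearly free of islet reads, as the lone 24 h TWEAK sample, which was chosen after seeing the data and leaves 1 sample assumed to vary like the others, 3 members were called for NIK SMI1 against TWEAK at 24 h and 1 for the NIK SMI1 interaction. Leaving out 1 sample in turn gave 6 members called for TWEAK against vehicle at 6 h and 6 to 7 at 24 h, 2 to 4 and 4 to 6 for NIK SMI1 against TWEAK, 5 to 6 and 4 to 6 for NIK SMI1 against vehicle, 4 to 5 for the vehicle times, 4 to 4 for the TWEAK interaction and 2 to 3 for the NIK SMI1 interaction. Values near 0 that were not called changed sign when 1 sample was left out: Nqo1 for TWEAK at 6 h (-0.061 and -0.040, over a range of -0.061 to 0.13), Keap1 for NIK SMI1 against vehicle at 6 h (-0.019 to 0.066), and Keap1 for the TWEAK interaction (-0.067 to 0.018, and 0.0085 with the lone TWEAK sample). The causes were not tested. Of 245 called values of list genes, 181 kept call and direction throughout and 0 reversed. Without a filter, which tests more genes, the share of tested genes called was 14.1% in place of 23.7% (TWEAK, 6 h), 22.8% in place of 39.0% (TWEAK, 24 h), 7.07% and 11.1% (NIK SMI1 against TWEAK), 9.09% and 10.8% (NIK SMI1 against vehicle), 17.3% (vehicle times) and 5.62% (TWEAK interaction), and with DESeq2 it was 7.71% in place of 4.74% (NIK SMI1 interaction). Replicates of 3 limit the small changes described, and reads of 26 to 131 limit Nqo1. No paired analysis was possible because the labels give no replicate numbers.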

Other observations

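Genes that produce superoxide or peroxide were also looked at. Those named below, Xdh and Cyba, were among the ones raised by TWEAK at 24 h. Of 17 such genes, 8 had too few reads to be tested. Of the 9 others, TWEAK raised 4 and lowered 2 at 6 h, and raised 3 and lowered 1 at 24 h, where 11.7% and 12.0% of all tested genes were higher and lower at 6 h and 18.3% and 20.7% at 24 h. Without vehicle 6 h sample 1, 3 were raised at 6 h and the others not called. Xdh, xanthine dehydrogenase, an oxidase of purine breakdown, rose from 35.2–37.5 CPM to 51.8–53.1 CPM at 6 h (log2 fold change 0.51, SE 0.045, adjusted p = 6.28e-10) and from 39.9–43.6 CPM to 65.4–66.8 CPM at 24 h (log2 fold change 0.68, SE 0.046, adjusted p = 1.83e-12). NIK SMI1 lowered it against TWEAK, to 39.1–39.9 CPM at 6 h (log2 fold change -0.40, SE 0.046, adjusted p = 5.06e-07) and 49.8–55.8 CPM at 24 h (log2 fold change -0.34, SE 0.043, adjusted p = 1.31e-06). Cyba, the membrane subunit of NADPH oxidases, was higher at 24 h with TWEAK (log2 fold change 0.37, SE 0.055, adjusted p = 3.78e-06). Against TWEAK, NIK SMI1 lowered 3 of the 9 genes at 6 h and 4 at 24 h in edgeR's test (2 at 24 h without TWEAK sample 2 or NIK SMI1 sample 3), and the others were not called. In that comparison 5.70% of all tested genes were lower at 6 h and 8.29% at 24 h.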
